A study of Mus musculus with 9 samples.

Results

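The 36 genes described here encode enzymes, transporters and regulators of hepatic fatty acid oxidation together with other known targets of PPARA, the nuclear receptor that switches on fat burning in liver. They were selected by gene symbol only, and all 36 were found among the 17305 genes of the deposited table. The livers came from male Balb/c mice in 3 groups of 3 mice, named lnc-Helf-sh1# + CCl4, lnc-Helf-sh2# + CCl4 and NC + CCl4. The labels give an age of 8 weeks, which in the methods of the study is the age at purchase. Every mouse received carbon tetrachloride (CCl4), a hepatotoxin that injures hepatocytes and scars the liver, for 8 weeks, and a single tail vein dose of adeno-associated virus 8 (AAV8), which the labels place 4 weeks after the first CCl4 injection. The labels give this dose as 1e+12 plaque-forming units per mouse, while the methods of the study give an earlier time and a lower dose. The virus carried shRNA1# or shRNA2#, both against the long non-coding RNA lnc-Helf, or a negative control (NC). All 3 groups were injured and infected, so the comparisons concern the shRNA in fibrotic liver, and no uninjured liver or oil-treated mouse was analysed here. One library of whole-liver RNA was sequenced per mouse as single-end 50-base reads.

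Fatty acids enter the hepatocyte, are bound by FABP1 and activated to acyl-CoA, and cross into mitochondria as carnitine esters made by CPT1A, the regulated step. Inside, the beta-oxidation spiral shortens the chain with dehydrogenases, a hydratase and a thiolase, and the acetyl-CoA formed feeds ketone bodies. Very long and branched chains are shortened first in peroxisomes. PPARA pairs with RXR, senses fatty acids and drives many of these genes during fasting, including the hormone Fgf21 and the kinase Pdk4, which spares glucose.

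PPARA and RXR bind a direct repeat spaced by 1 base (DR1), searched here as AGGTCANAGGTCA on both strands of RefSeq promoters of the GRCm38.p6 build, from 250 bases before to 50 after each start. Of the 36 genes, 30 had a promoter in the table, with 33 promoters in all. With at most 2 mismatches over the 12 fixed letters, 3 of the 33 promoters held the motif (9.09%), against 3.86% of 32851 promoters. Those 3 promoters are shown because they hold the best matches, each with 20 bases on either side of the motif, which is in capitals.
Fabp1: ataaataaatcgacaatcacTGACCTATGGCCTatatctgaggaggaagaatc
Slc25a20: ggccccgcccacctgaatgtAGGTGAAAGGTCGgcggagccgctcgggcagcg
Acot4: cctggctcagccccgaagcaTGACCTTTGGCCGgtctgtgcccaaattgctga
The Fabp1 stretch (chr6:71199792-71199844, plus strand) had 1 mismatch, with the motif on the minus strand. The Slc25a20 stretch (chr9:108662122-108662174, plus strand) had 2 mismatches, with the motif on the plus strand. The Acot4 stretch (chr12:84038346-84038398, plus strand) had 2 mismatches, with the motif on the minus strand. A match is a description of these letters, not of binding, and no binding was measured.

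The 9 libraries held 14265875 to 16816431 expected counts each, and all 36 genes passed the filter on low counts with 13059 genes in all. Values per library are CPM, that is counts relative to library size after TMM scaling, while TPM, which also allow for transcript length, are used to compare genes. lnc-Helf lies within the gene Fmo2 and has no row of its own, so its knockdown was not measured in these counts. The paper reported the knockdown in liver tissue by qRT-PCR. Fmo2 itself stood at 109, 122 and 104 CPM with shRNA1#, at 174, 141 and 88.2 CPM with shRNA2# and at 227, 202 and 265 CPM in NC livers (log2 fold changes of -1.05 and -0.78, edgeR adjusted p = 0.143 and 0.0528). In edgeR, 0 of 13059 genes had an adjusted p under 0.05 with shRNA1#, whereas 615 were higher and 508 lower with shRNA2#. With shRNA2#, 0 genes were called once any of these 3 libraries was dropped: replicate 2 of lnc-Helf-sh2# + CCl4, or replicates 1 and 3 of NC + CCl4.

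The genes spanned a wide range of levels. In NC livers, Fabp1 was highest at 7763 ± 1066 TPM (SD, n = 3) and ranked 14 among all genes, followed by the thiolase Acaa2 at 933 ± 35.9 TPM and the very long chain fatty acid transporter and synthetase Slc27a2 at 918 ± 41.8 TPM. Ppara stood at 55.0 ± 5.75 TPM. The lowest were Fgf21 at 11.9 ± 4.48 TPM, the mitochondrial thioesterase Acot2 at 10.8 ± 2.64 TPM and Pdk4 at 5.73 ± 0.195 TPM. The summed level without Fabp1 was 6348, 6876 and 6391 TPM with shRNA1#, 7904, 5744 and 6201 TPM with shRNA2#, and 8189, 8189 and 8520 TPM in NC livers, so that this sum, on the TPM scale, was lower in all 6 shRNA libraries than in all 3 NC libraries. With Fabp1, lnc-Helf-sh2# + CCl4 replicate 1 was above the NC libraries, at 24450 TPM against 15110 to 16850 TPM, as it was without Fabp1 in CPM, at 10340 against 9839 to 10060. TPM and TMM-scaled values differ in their centre here: the median over the genes tested on log2(TPM + 1) was -0.18 with shRNA2#, against 0.005 after TMM scaling.

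None of the 36 genes passed an adjusted p of 0.05 in edgeR in any of the 3 comparisons. Among all genes tested, 0% were called in either direction with shRNA1#, 4.71% were called higher and 3.89% lower with shRNA2#, and 0% were called between shRNA2# and shRNA1#. Past a 2-fold change as well, 0.574% of all genes were higher and 1.64% lower with shRNA2#, and 0 of the 36. At an unadjusted p under 0.05, 0 of 36 genes were higher and 11 lower with shRNA1#, where all genes gave 7.94% higher and 9.95% lower. With shRNA2#, 1 was higher and 7 were lower (all genes, 16.3% and 14.9%). DESeq2 called 0 higher and 4 lower with shRNA1# (all genes, 0.773% and 2.21%) and 0 higher and 2 lower with shRNA2# (all genes, 8.39% and 7.58%). The descriptions that follow therefore give values, and a direction is a position of libraries and not a test that was passed.

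With shRNA1#, 33 of the 36 genes had a negative log2 fold change and 3 a positive one, where 47.1% of all genes were negative and 52.9% positive. The median over the 36 genes was -0.24, against 0.02 over all genes. For 16 genes (44.4%) all 3 lnc-Helf-sh1# + CCl4 libraries lay below all 3 NC + CCl4 libraries, and for 1 gene, Acads, all lay above, where all genes gave 12.9% below and 15.6% above. With shRNA2#, 21 genes were negative and 15 positive (all genes, 49.5% and 50.5%), and the median was -0.06 (0.033 without lnc-Helf-sh2# + CCl4 replicate 2), against 0.005 over all genes. Only 5 genes lay wholly below NC and 2 wholly above, where all genes gave 16.1% and 16.8%, so these shares were at or under the background. Both comparisons share the 3 NC libraries.

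**Figure D1:**
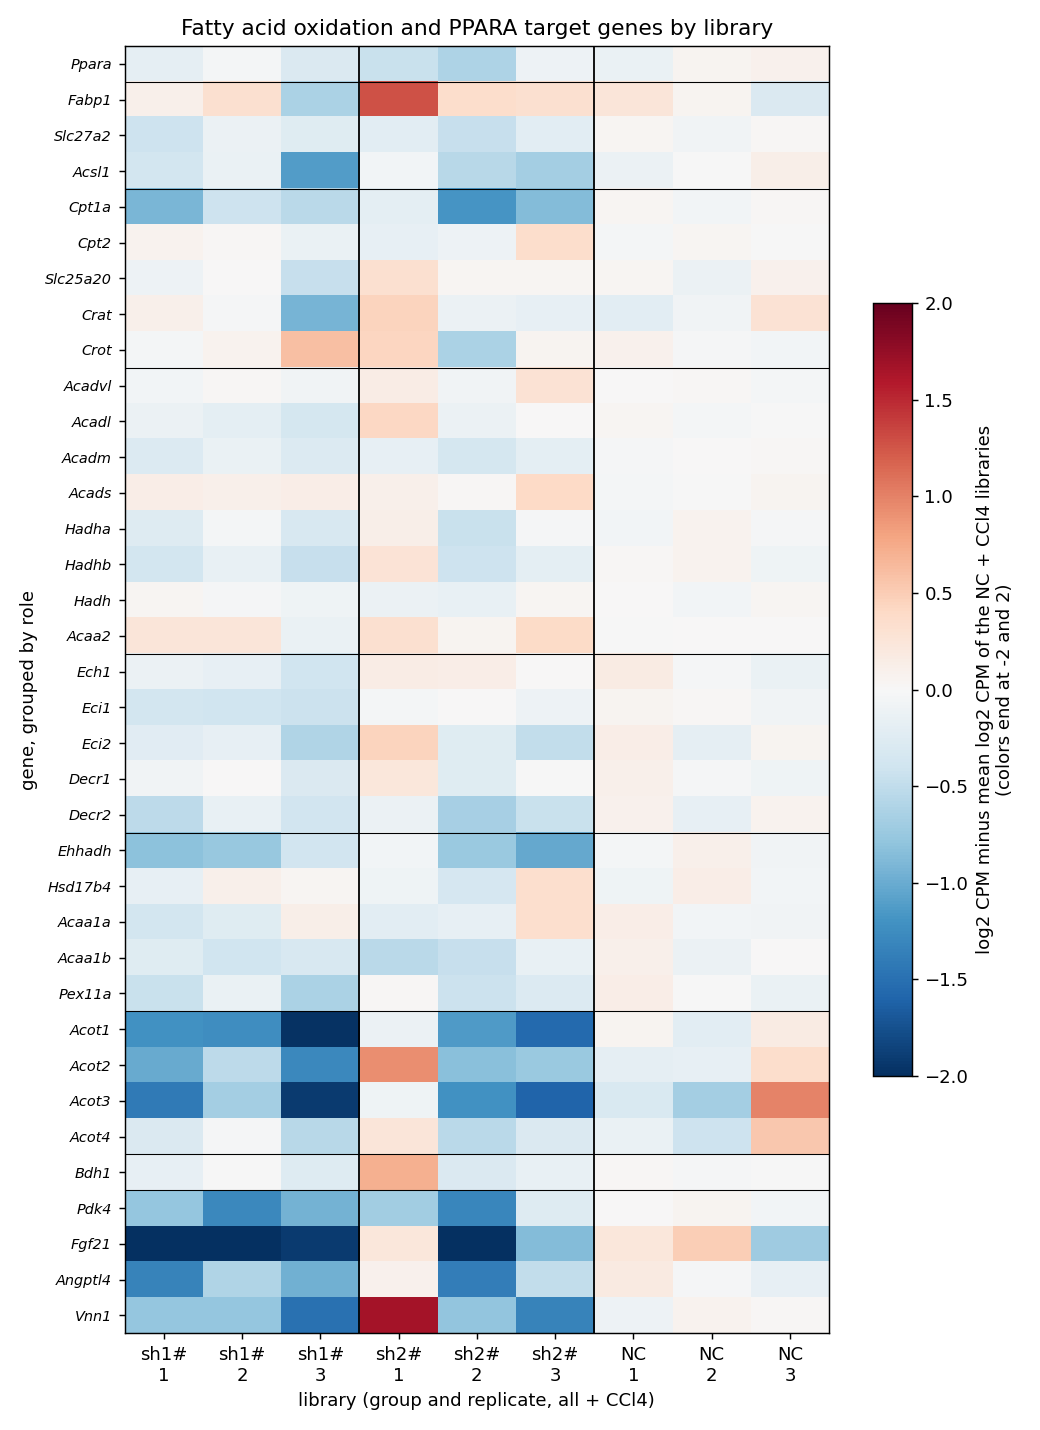
Log2 CPM of each of the 36 genes (rows, grouped by role) in each of the 9 libraries (columns), minus the mean log2 CPM of the NC + CCl4 libraries, with colors ending at -2 and 2. The 3 lnc-Helf-sh1# + CCl4 columns are mostly blue, most deeply in the thioesterases and the other PPARA targets, and lnc-Helf-sh2# + CCl4 replicate 1 holds the deepest reds, in Vnn1 and Fabp1.

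The libraries differed within the groups. The median over the 36 genes, relative to the NC mean, was -0.27, -0.13 and -0.39 (log2) in lnc-Helf-sh1# + CCl4 replicates 1 to 3, 0.09, -0.42 and -0.16 in lnc-Helf-sh2# + CCl4 replicates 1 to 3, and 0.02, -0.02 and 0.004 in the NC + CCl4 replicates. lnc-Helf-sh2# + CCl4 replicate 1 was thus above every NC library, while the other 5 shRNA libraries were below every NC library. In lnc-Helf-sh1# + CCl4 replicates 1 to 3, 25, 18 and 32 of the 36 genes were below all NC libraries, whereas among all genes 32%, 29.9% and 28.9% were. In lnc-Helf-sh2# + CCl4 replicates 1 to 3 these numbers were 10, 29 and 19, whereas among all genes they were 34.1%, 36.7% and 37.2%. The coefficient of variation within a group had a median over the 36 genes of 13.8% with shRNA1#, 22.9% with shRNA2# and 6.97% in NC livers, while over all genes it was 12%, 16.9% and 11.5%. The 36 genes thus varied less than the median gene among NC livers, slightly more among lnc-Helf-sh1# + CCl4 livers and more among lnc-Helf-sh2# + CCl4 livers. A narrow NC range makes it easier for a library to lie outside it. The shares over all genes given for comparison were not matched for this spread or for level.

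**Figure D2:**
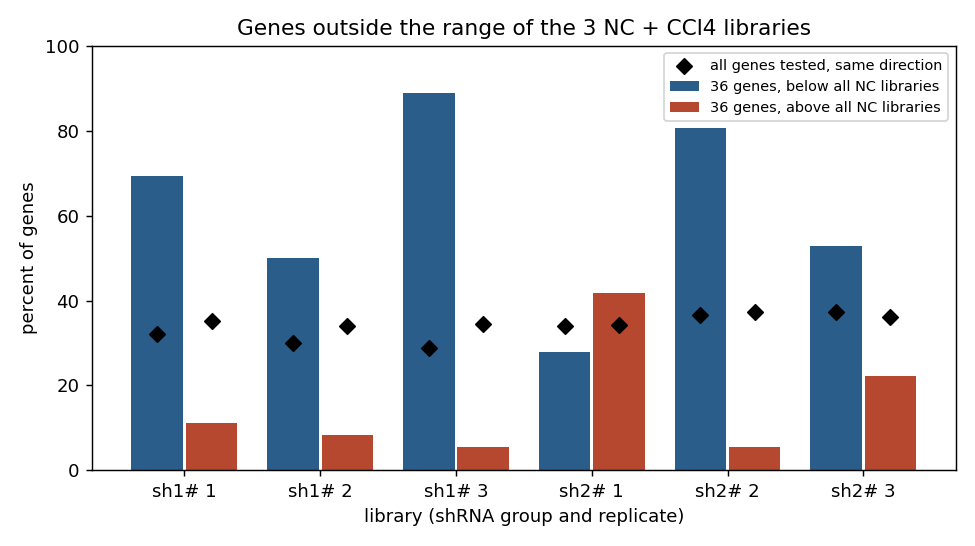
Percent of the 36 genes (bars) that lay below or above all 3 NC + CCl4 libraries in each shRNA library, with the same percent over all genes tested (diamonds). The share below reached 88.9% in lnc-Helf-sh1# + CCl4 replicate 3 and 80.6% in lnc-Helf-sh2# + CCl4 replicate 2, and only in lnc-Helf-sh2# + CCl4 replicate 1 was the share above (41.7%) larger than the share below (27.8%).

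Because lnc-Helf-sh2# + CCl4 replicate 1 was the only shRNA library with a median above every NC library, the shRNA2# comparison was also read without it. Then 5 of the 36 genes passed in edgeR, all lower: the thioesterase Acot1 (log2 fold change -1.35, adjusted p = 0.0178), Cpt1a (-1.03, adjusted p = 0.0165), the peroxisomal bifunctional enzyme Ehhadh (-0.89, adjusted p = 0.0184), the pantetheinase Vnn1 (-1.06, adjusted p = 0.0295) and the peroxisomal dienoyl-CoA reductase Decr2 (-0.58, adjusted p = 0.0366). In that fit 6.93% of all genes were called higher and 5.61% lower, and 13.9% of the 36 genes were called lower. The median over the 36 genes was then -0.30. Over the alternatives run, the adjusted p for shRNA2# ranged over 0.0178 to 0.306 for Acot1, 0.0165 to 0.220 for Cpt1a, 0.0184 to 0.307 for Ehhadh, 0.0295 to 0.993 for Vnn1 and 0.0366 to 0.294 for Decr2. Leaving out the replicate was decided with its values in these same genes known, so these adjusted p-values are a description and not a test. No label marks it as faulty, and replicate 2 lay further from the NC mean (median -0.42 against 0.09, log2). lnc-Helf-sh2# + CCl4 replicate 1 also carried the highest sum of cholangiocyte markers, at 1250 CPM, of which Spp1, also made by other cells, gave 1233 CPM. The sum was 386 and 398 CPM in the other lnc-Helf-sh2# + CCl4 libraries and 269 to 424 CPM in NC libraries. The median over the 5 markers tested was -0.45 (log2, relative to the NC mean) in that library, inside the -0.49 to 0.12 of the NC libraries. The part of this Spp1 difference in the 36 genes was not tested.

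**Figure D3:**
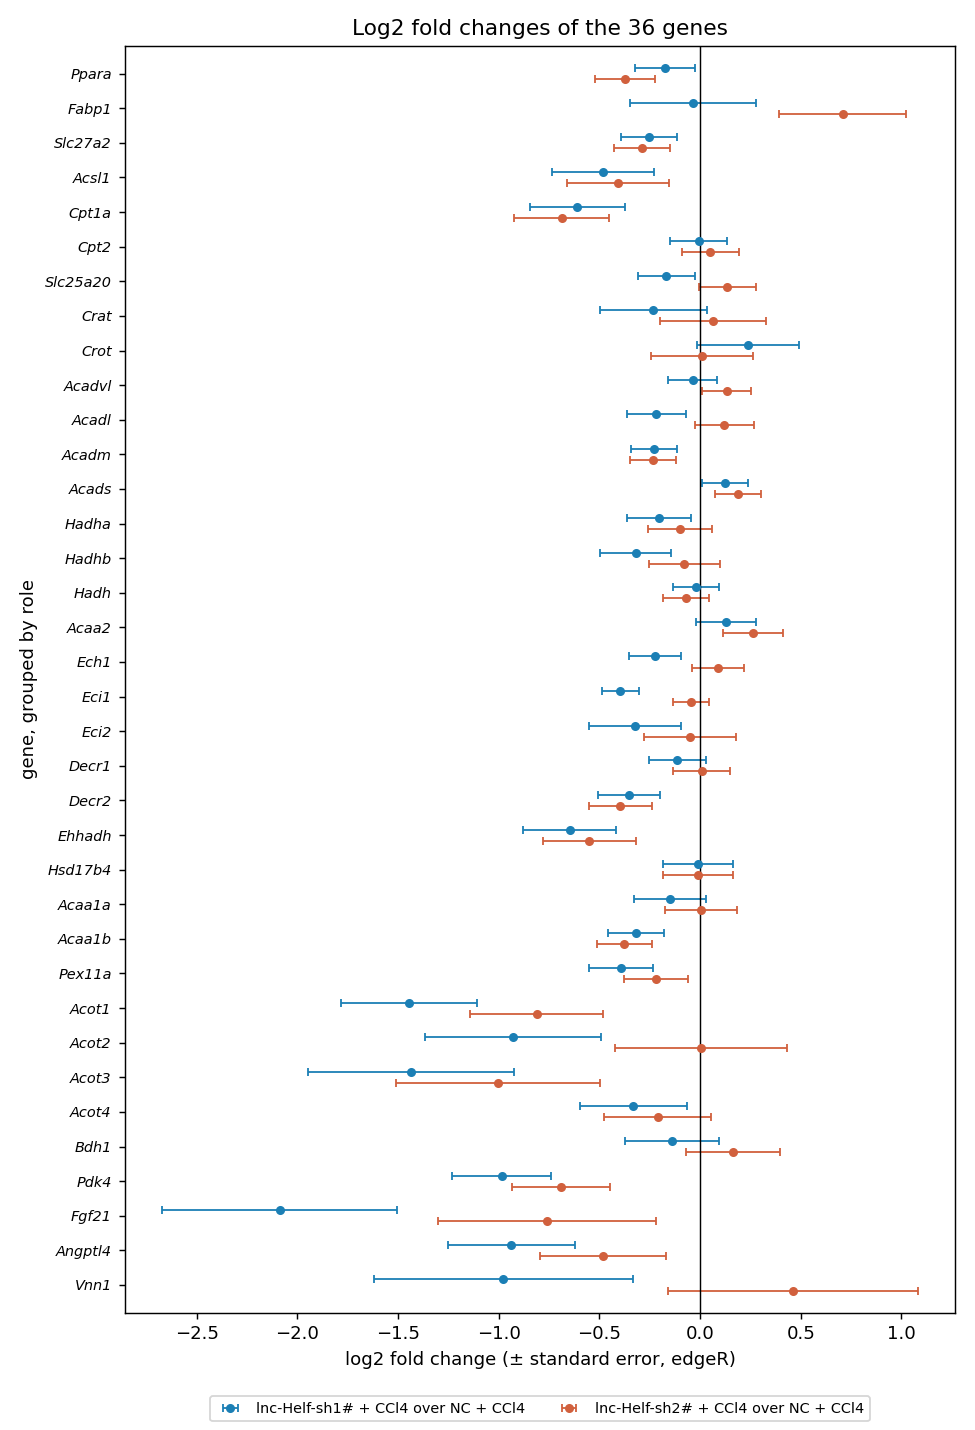
Log2 fold change of each of the 36 genes over NC + CCl4 (points) with its standard error from edgeR (bars), for lnc-Helf-sh1# + CCl4 (blue) and lnc-Helf-sh2# + CCl4 (orange). Most blue points lie left of 0, down to -2.09 for Fgf21, and the orange points lie on both sides, up to 0.71 for Fabp1.

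Ppara, the receptor itself, was at 198, 218 and 184 CPM with shRNA1#, at 166, 146 and 210 CPM with shRNA2#, and at 204, 234 and 238 CPM in NC livers. The groups overlapped in both comparisons through lnc-Helf-sh1# + CCl4 replicate 2 and lnc-Helf-sh2# + CCl4 replicate 3. The log2 fold changes were -0.17 ± 0.15 (SE) and -0.37 ± 0.15, with edgeR adjusted p = 0.559 and 0.125. On the TPM scale the shRNA2# difference passed, at -0.60 (limma-trend on log2(TPM + 1)), where 1.34% of all genes were called higher and 12.5% lower.

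Among the uptake and activation genes, the medians were -0.25 with shRNA1# and -0.29 with shRNA2#. Fabp1, the abundant fatty acid binding protein of the hepatocyte cytosol, was at 1536, 1790 and 923 CPM with shRNA1#, at 3488, 1840 and 1791 CPM with shRNA2#, and at 1702, 1485 and 1169 CPM in NC livers. Every lnc-Helf-sh2# + CCl4 library was above every NC library, and replicate 1 was far above the other libraries (log2 fold change 0.71 ± 0.32, edgeR adjusted p = 0.159, and -0.04 with shRNA1#). Slc27a2 lay at 818 to 1039 CPM over the 6 shRNA libraries and at 1071 to 1160 CPM in NC livers, with log2 fold changes of -0.25 and -0.29 (edgeR adjusted p = 0.366 and 0.188). Acsl1, the main hepatic long-chain acyl-CoA synthetase, had log2 fold changes of -0.48 and -0.41 (edgeR adjusted p = 0.341 and 0.294).

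The 5 genes of carnitine ester metabolism had medians of -0.17 and 0.05, and the one furthest from NC was Cpt1a, the outer membrane transferase that commits acyl chains to mitochondria. Cpt1a was at 360.5, 513 and 469 CPM with shRNA1#, at 596, 302 and 374 CPM with shRNA2#, and at 701, 656 and 691 CPM in NC livers. All 6 shRNA libraries were below all 3 NC libraries, and lnc-Helf-sh2# + CCl4 replicate 1 was the nearest to them. The log2 fold changes were -0.61 ± 0.24 and -0.69 ± 0.24, with edgeR adjusted p = 0.229 and 0.0862. In DESeq2, Cpt1a passed with shRNA2# at an adjusted p of 0.0295, and over the alternatives run its adjusted p was 0.0165 to 0.220 with shRNA2# and 0.101 to 0.507 with shRNA1#.

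The other carnitine genes lay closer to NC. Cpt2, the inner membrane transferase that releases acyl-CoA in the matrix, had log2 fold changes of -0.01 and 0.05, and the carnitine-acylcarnitine carrier Slc25a20 had -0.17 and 0.14. The carnitine acetyltransferase Crat had -0.23 and 0.07, and the peroxisomal octanoyltransferase Crot 0.24 and 0.01. These 4 genes had edgeR adjusted p of 0.537 to 0.985 in both comparisons.

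The 8 genes of the mitochondrial spiral had medians near 0, at -0.12 with shRNA1# (-0.29 to -0.08 over the alternatives run) and 0.03 with shRNA2# (-0.28 to 0.13), and their log2 fold changes ran over -0.32 to 0.13 and -0.24 to 0.26. The medium-chain dehydrogenase Acadm had all 6 shRNA libraries, at 341 to 398 CPM, below the NC libraries at 430.0 to 444 CPM (log2 fold changes -0.23 and -0.24, edgeR adjusted p = 0.319 and 0.188). Acads, the short-chain dehydrogenase, and Acaa2 were the 2 spiral genes with positive values in both comparisons (Acads 0.12 and 0.19, Acaa2 0.13 and 0.26). The very long chain dehydrogenase Acadvl (-0.04 and 0.13) and the short-chain hydroxyacyl dehydrogenase Hadh (-0.02 and -0.07) lay near 0. Acadl, the long chain dehydrogenase, was at 161 to 191 CPM with shRNA1#, below the NC libraries at 201 to 212 CPM (log2 fold change -0.22, edgeR adjusted p = 0.451), and with shRNA2# it overlapped with NC (0.12). The trifunctional protein subunits Hadha and Hadhb had -0.20 and -0.32 with shRNA1#, and -0.10 and -0.08 with shRNA2#. Hadhb is uncertain, since 62.4% of its 50-base windows occur in transcripts of other genes, mostly the pseudogene Gm13910.

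The 5 auxiliary genes handle double bonds of unsaturated chains, and their medians were -0.32 with shRNA1# and -0.05 with shRNA2#. Eci1, the mitochondrial enoyl-CoA isomerase, was at 82.6, 80.7 and 78.9 CPM with shRNA1#, at 104, 107 and 98.5 CPM with shRNA2#, and at 110.5, 108 and 101 CPM in NC livers. The lnc-Helf-sh1# + CCl4 libraries lay in a narrow band below all other libraries, and the lnc-Helf-sh2# + CCl4 libraries overlapped with NC. Eci1 had the smallest unadjusted p of the 36 genes with shRNA1# (log2 fold change -0.40 ± 0.09, edgeR adjusted p = 0.143) and passed in DESeq2 (adjusted p = 0.00203, and 0.00203 to 0.396 over the alternatives run). With shRNA2# its log2 fold change was -0.05 ± 0.09 (edgeR adjusted p = 0.759).

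Decr2 was at 60.0, 78.0 and 66.1 CPM with shRNA1#, at 79.9, 54.9 and 63.3 CPM with shRNA2#, and at 92.2, 77.4 and 91.0 CPM in NC livers. Both shRNA groups overlapped with NC, whose replicate 2 was the lowest (log2 fold changes -0.35 ± 0.16 and -0.40 ± 0.16, edgeR adjusted p = 0.272 and 0.12). The dienoyl-CoA isomerase Ech1 had log2 fold changes of -0.23 and 0.09, the peroxisomal isomerase Eci2 -0.32 and -0.05, and the mitochondrial dienoyl-CoA reductase Decr1 -0.11 and 0.01.

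The 5 peroxisomal genes had medians of -0.32 with shRNA1# and -0.22 with shRNA2#. Ehhadh was at 218, 227 and 296 CPM with shRNA1#, at 370.5, 232 and 190.1 CPM with shRNA2#, and at 376, 416.5 and 368 CPM in NC livers. All lnc-Helf-sh1# + CCl4 libraries were below NC, as were 2 of the 3 lnc-Helf-sh2# + CCl4 libraries, replicate 1 lying within the NC range. Its log2 fold changes were -0.65 ± 0.23 and -0.55 ± 0.23 (edgeR adjusted p = 0.204 and 0.139). The thiolase Acaa1b was at 417, 372.5 and 395 CPM with shRNA1#, at 337, 359 and 442.5 CPM with shRNA2#, and at 526, 455 and 495 CPM in NC livers, so that all 6 shRNA libraries were below NC. Its log2 fold changes were -0.32 ± 0.14 and -0.38 ± 0.14 (edgeR adjusted p = 0.263 and 0.101), and with shRNA2# it passed in DESeq2 at an adjusted p of 0.0419, with 0.0207 to 0.242 over the alternatives run. The near-identical copy Acaa1a, with which it shares 35.5% of its 50-base windows, had -0.15 and 0.00, and the split of reads between the copies is uncertain.

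Pex11a, a membrane protein of peroxisome proliferation, was at 53.7, 66.8 and 46.9 CPM with shRNA1#, at 74.2, 54.1 and 60.5 CPM with shRNA2#, and at 80.1, 72.6 and 66.9 CPM in NC livers. Replicate 2 of lnc-Helf-sh1# + CCl4 lay just under the lowest NC library, and lnc-Helf-sh2# + CCl4 replicate 1 lay inside the NC range (log2 fold changes -0.39 ± 0.16 and -0.22 ± 0.16, edgeR adjusted p = 0.239 and 0.369). Hsd17b4, the other peroxisomal bifunctional enzyme, had -0.01 in both comparisons.

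The 4 acyl-CoA thioesterases, which release free fatty acids from acyl-CoA, had a median of -1.18 with shRNA1# (-1.38 to -0.75 over the alternatives run) and of -0.51 with shRNA2# (-1.09 to -0.11). Acot1, the cytosolic enzyme, was at 7.77, 7.59 and 4.60 CPM with shRNA1#, at 16.6, 8.23 and 6.17 CPM with shRNA2#, and at 18.7, 15.5 and 20.2 CPM in NC livers. The lnc-Helf-sh1# + CCl4 libraries were all below NC, and of the lnc-Helf-sh2# + CCl4 libraries replicate 1 was inside the NC range. The log2 fold changes were -1.45 ± 0.34 (edgeR adjusted p = 0.144, DESeq2 adjusted p = 0.00451, and 0.00451 to 0.396 over the alternatives run) and -0.81 ± 0.33 (edgeR adjusted p = 0.13).

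Acot3, a peroxisomal thioesterase, was at 13.2, 22.0 and 9.31 CPM with shRNA1#, at 33.3, 15.2 and 11.6 CPM with shRNA2#, and at 28.6, 22.0 and 69.9 CPM in NC livers. NC + CCl4 replicate 3 was higher than all other libraries, and both shRNA groups overlapped with NC (log2 fold changes -1.44 ± 0.51 and -1.003 ± 0.51, edgeR adjusted p = 0.204 and 0.204). Without that replicate the values lay nearer to 0, at -0.77 and -0.33. Acot2 had -0.93 and 0.01, and Acot4, another peroxisomal member, -0.33 and -0.21. Acot1, Acot2 and Acot3 share 33.2%, 27.7% and 19.5% of their 50-base windows with other genes, Acot1 and Acot2 mostly with each other, so how reads were split among them is uncertain.

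The 4 other PPARA targets act outside the spiral, and with shRNA1# all 4 had every library below NC, with a median of -0.98 (-1.17 to -0.95 over the alternatives run), and the median with shRNA2# was -0.59 (-0.97 to -0.25). Pdk4, which shuts pyruvate dehydrogenase when fat is burned, was at 6.33, 4.44 and 5.64 CPM with shRNA1#, at 6.72, 4.37 and 9.08 CPM with shRNA2#, and at 10.9, 11.2 and 10.5 CPM in NC livers. All 6 shRNA libraries were below NC, on 68 to 131 expected counts against 183 to 200 expected counts. The log2 fold changes were -0.99 ± 0.24 (edgeR adjusted p = 0.152, DESeq2 adjusted p = 0.0165, and 0.0165 to 0.396 over the alternatives run) and -0.69 ± 0.24 (edgeR adjusted p = 0.0918).

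Fgf21, a hormone that the liver secretes under PPARA control, was at 1.19, 1.23 and 1.35 CPM with shRNA1#, at 5.96, 0.836 and 2.77 CPM with shRNA2#, and at 5.93, 7.11 and 3.09 CPM in NC livers. The lnc-Helf-sh1# + CCl4 libraries held 19 to 22 expected counts and were all below NC at 54 to 127, while the lnc-Helf-sh2# + CCl4 libraries spread over the whole range. The log2 fold changes were -2.09 ± 0.58 (edgeR adjusted p = 0.168, DESeq2 adjusted p = 0.0159, and 0.0159 to 0.411 over the alternatives run) and -0.76 ± 0.54 (edgeR adjusted p = 0.363).

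Angptl4, a secreted inhibitor of lipoprotein lipase, was at 55.5, 92.6 and 71.9 CPM with shRNA1#, at 148, 53.6 and 99.8 CPM with shRNA2#, and at 159, 138 and 125 CPM in NC livers (log2 fold changes -0.94 ± 0.32 and -0.48 ± 0.31, edgeR adjusted p = 0.191 and 0.317). Vnn1, shown after its values were seen because it passed without lnc-Helf-sh2# + CCl4 replicate 1, was at 9.72, 9.75 and 5.88 CPM with shRNA1#, at 52.6, 9.58 and 6.58 CPM with shRNA2#, and at 15.5, 17.4 and 17.0 CPM in NC livers. Replicate 1 of shRNA2# was the only shRNA library above NC for Vnn1, and its direction with shRNA2# turned on that library (0.46 ± 0.62 with it, -1.06 without it). Bdh1, which interconverts the ketone bodies, showed the same library apart, at 666 CPM against 333 and 367 CPM in the other lnc-Helf-sh2# + CCl4 libraries and 402 to 412 CPM in NC livers, with log2 fold changes of -0.14 and 0.16.

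**Figure D4:**
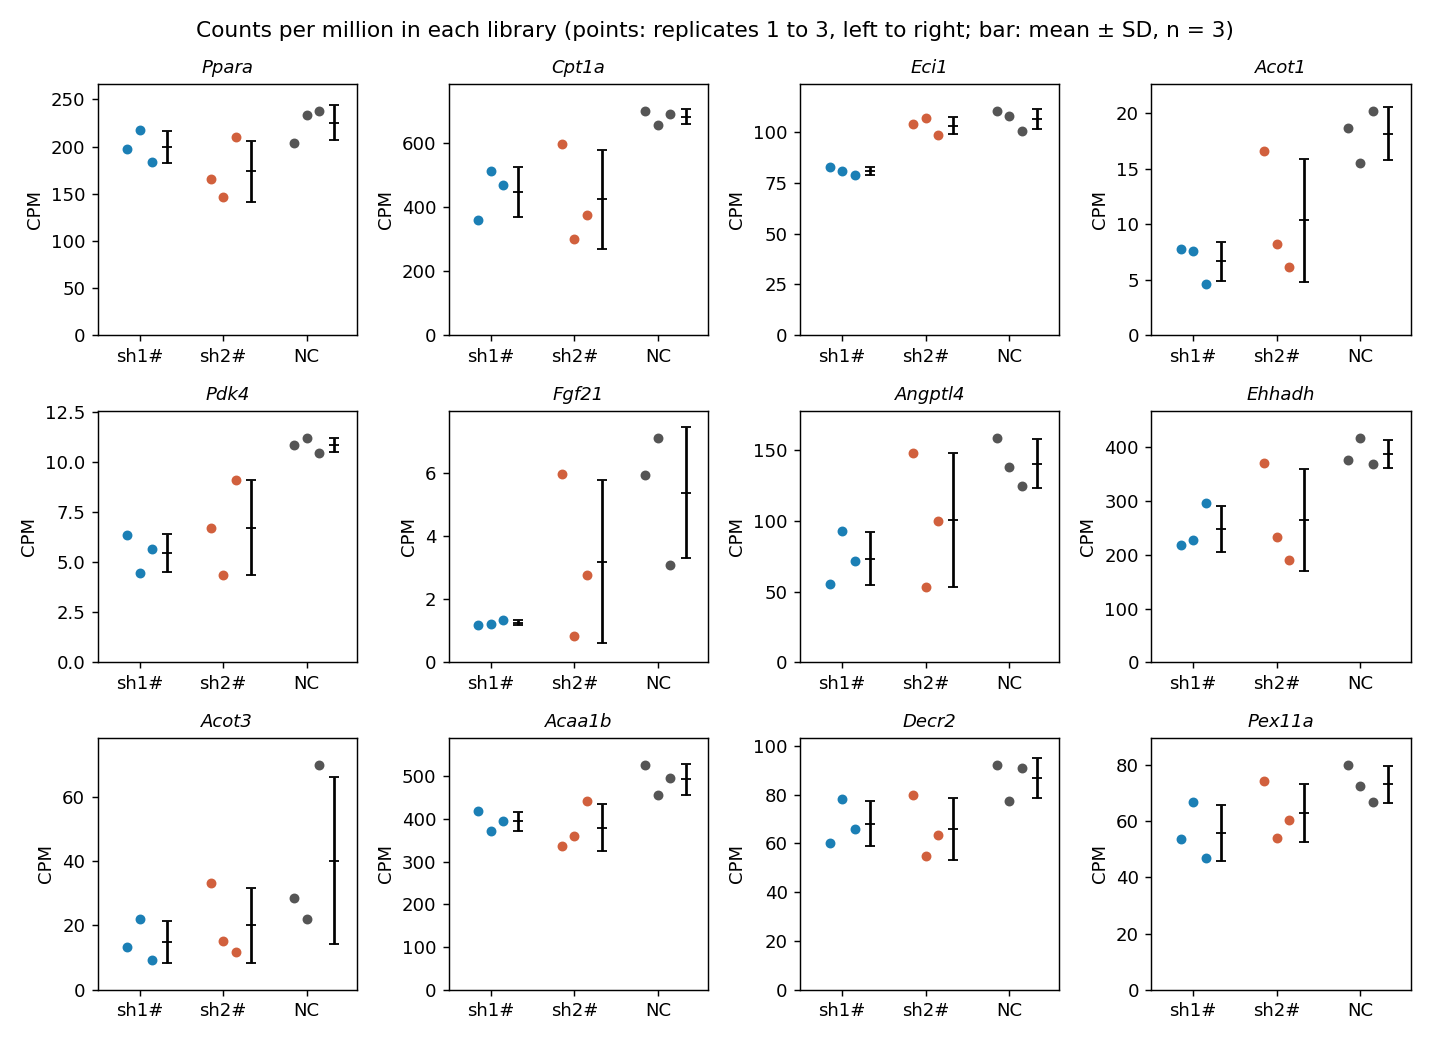
CPM of 12 of the genes in each library (points, replicates 1 to 3 from left to right), with the group mean and SD (n = 3), for lnc-Helf-sh1# + CCl4 (blue), lnc-Helf-sh2# + CCl4 (orange) and NC + CCl4 (gray). For Cpt1a, Pdk4 and Acaa1b all 6 shRNA points lie below the NC points, and for Acot1, Fgf21, Angptl4 and Ehhadh the lnc-Helf-sh2# + CCl4 replicate 1 point lies within the NC range.

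Set directly against each other, lnc-Helf-sh2# + CCl4 and lnc-Helf-sh1# + CCl4 did not differ by the test in any of the 36 genes. Of the 36 log2 fold changes 27 were positive (higher with shRNA2#) and 9 negative, where all genes gave 50.4% and 49.6%, and the median was 0.16, against 0.003 over all genes. At an unadjusted p under 0.05, 6 genes were higher and 0 lower with shRNA2#, where all genes gave 5.19% and 5.26%. For 4 genes (Fabp1, Slc25a20, Ech1 and Eci1) all lnc-Helf-sh2# + CCl4 libraries were above all lnc-Helf-sh1# + CCl4 libraries and for 0 genes below, where all genes gave 7.02% and 7.14%. DESeq2 called 1 higher, Eci1 (0.37, adjusted p = 0.0184, and 0.0184 to 0.862 over the alternatives run), and 0 lower, where all genes gave 0.456% and 0.47%. In edgeR, Eci1 had 0.35 ± 0.09 and an adjusted p of 0.416. Without lnc-Helf-sh2# + CCl4 replicate 1 the median was 0.03.

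The other genes of the pathway are given by list, beside 4.71% of all genes called higher and 3.89% called lower with shRNA2# in edgeR. Of 21 genes listed as other peroxisomal genes, 0 passed in edgeR with either shRNA, the lowest adjusted p being 0.215 with shRNA1# and 0.0561 with shRNA2#. Of 19 genes listed as other mitochondrial fatty acid oxidation genes, 0 passed with shRNA1# (lowest edgeR adjusted p 0.181) and 2 were higher with shRNA2#. They were Etfb, a subunit of the electron transfer flavoprotein (0.54, edgeR adjusted p = 0.0484), and the CoA hydrolase Nudt19 (0.53, edgeR adjusted p = 0.0373). Whether Nudt19 belongs in this list or in the peroxisomal one was not checked. Of 8 ketone body genes 1 rose with shRNA2#, the transporter Slc16a6 (1.09, edgeR adjusted p = 0.035). With shRNA1#, log2 fold changes were positive for 13 and negative for 8 of the other peroxisomal genes (median 0.09). For the other mitochondrial genes these numbers were 12 and 7 (median 0.04), and for the ketone body genes 4 and 4 (median 0.22).

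Of 11 other fatty acid activation genes tested, Dbi, the acyl-CoA binding protein, rose with shRNA2# (0.78, edgeR adjusted p = 0.0449), and Acsm5, a medium-chain synthetase, fell by 0.50 on the log2 scale (edgeR adjusted p = 0.043). With shRNA1#, 10 of these activation genes had positive and 1 negative log2 fold changes (median 0.28), whereas 3 of the other known PPARA targets had positive and 9 negative ones (median -0.36). With shRNA2#, 7 of the activation genes had positive and 4 negative values (median 0.09). For the other known PPARA targets these numbers were 7 and 5 with shRNA2# (median 0.17). Of 12 other known PPARA targets tested, Cyp8b1, the sterol hydroxylase that sets cholic acid production, was at 74.2, 139 and 72.3 CPM with shRNA1#, at 60.2, 89.0 and 95.0 CPM with shRNA2#, and at 232, 254 and 144 CPM in NC livers (log2 fold changes -1.14 and -1.37, edgeR adjusted p = 0.16 and 0.0356). Among 17 partners and coregulators of PPARA, 1 passed, the coactivator Ncoa2 with shRNA2# (-0.51, edgeR adjusted p = 0.0478), while the partner Rxra had -0.02 and -0.09. In this list 7 values were positive and 10 negative with shRNA1# (median -0.02), and 2 were positive and 15 negative with shRNA2# (median -0.21). Of 12 genes that answer to fasting or feeding, 8 had positive and 4 negative log2 fold changes with each shRNA (medians 0.535 and 0.534). The list joins genes of both states, so its sign count has no direction. With shRNA1# 0 of them passed, and with shRNA2# 2 passed: Pnpla3 (2.74, edgeR adjusted p = 0.0489) and Angptl8 (1.75, edgeR adjusted p = 0.0484) were higher. Of 15 clock genes tested, 4 had positive and 11 negative values with shRNA1# (median -0.12), and 0 passed. With shRNA2# 7 were positive and 8 negative (median -0.06), and 1 passed: Cry2 fell by 0.57 on the log2 scale (edgeR adjusted p = 0.0201). Feeding state and hour of sacrifice were not stated, and their part in the values of the 36 genes was not tested.

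Whole-liver RNA mixes cell types, and fewer cells of a type cannot be told apart from less RNA per cell. The hepatocyte markers were abundant in every library, their sum over 11 genes being 118200 to 163700 CPM with shRNA1#, 138900 to 177900 CPM with shRNA2# and 119900 to 142400 CPM in NC livers, and their median log2 fold changes were 0.14 and 0.35. Scaled to these markers, the median over the 36 genes was -0.43 with shRNA1# and -0.37 with shRNA2#, where all genes gave -0.15 and -0.30. That scaling used the summed counts of the markers, most of which came from Alb. The share of Alb in all counts was 6.81% to 11.5% with shRNA1#, 7.49% to 12.4% with shRNA2# and 8.35% to 11.6% in NC livers. The 10 macrophage and monocyte markers summed to 496 to 879 CPM with shRNA1#, 483 to 513 CPM with shRNA2# and 881 to 1349 CPM in NC livers, with medians of -0.70 and -1.28 and with 4 genes lower in edgeR with shRNA2#. The 10 stellate cell markers summed to 581 to 1070 CPM with shRNA1#, 716 to 1385 CPM with shRNA2# and 1063 to 1784 CPM in NC livers, with medians of -0.60 and -0.47 and with 1 gene, Dcn, lower with shRNA2#. Adipocyte markers, of which Adipoq, Plin1 and Retn were in the table, summed to at most 0.3 TPM in any library. The part of these cell types in the values of the 36 genes was not tested.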

How the data were processed

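Per the labels, liver RNA was sequenced on the BGIseq500 platform, and RSEM, Bowtie2 and BWA appear in the processing notes of the submitters, without roles, beside the build hg19, which is human, although the table holds mouse genes. How that build entered is not given. The deposited table holds RSEM expected counts, of which 8.15% were not whole, and TPM made by the authors for each gene and library. FPKM as deposited by the authors were not used. Nothing was pooled. The methods of the study give an earlier time and a lower dose of virus than the labels, and the labels are followed here. Expected counts were rounded, filtered with filterByExpr (minimum count 10), scaled by TMM and tested with edgeR 4.0.16 (quasi-likelihood) in R 4.3.3, with all 9 libraries in 1 fit and no covariate. P-values were adjusted by Benjamini-Hochberg over 13059 genes, and an adjusted p under 0.05 was called. The standard error is the log2 fold change over the root of F. The biological coefficient of variation was 19.9%. DESeq2 1.42.0 and limma 3.58.1 (on log2(TPM + 1) and log2(TPM + 0.1)) were alternatives. The edgeR fit was tested on simulated data. Each mouse is 1 replicate. With 3 against 3 libraries, an exact two-sided permutation test of a single value cannot go below p = 0.1, so none was used. No pair of libraries agreed within counting noise.

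The 36 genes, the role groups and the further lists were chosen with earlier results of these data known, so no test was run over a list. Values per library are given for Ppara, Cpt1a and the genes with the smallest unadjusted p over the 3 comparisons up to 12 genes, the rule for genes that no comparison called, and from further lists the called genes. Rxra, and the values per library of Vnn1, Fabp1 and Bdh1, were added after their values were seen. Shared sequence was counted as 50-base windows of GENCODE M21 transcripts, and promoters came from RefSeq (GRCm38.p6). Peroxisomal targeting signals were not analysed here.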

Additional observations from a re-analysis of the deposited data

How the results depend on the processing

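No gene of the 36 was called with shRNA1# in edgeR or limma under any alternative, whereas DESeq2 called 4. With shRNA2#, the number called was 2 in DESeq2, 3 with library totals only (Ppara, Pdk4 and Acaa1b), 2 when scaled to hepatocyte markers (Acot1 and Cpt1a), 7 in limma on log2(TPM + 1) and on log2(TPM + 0.1), 3 in limma with no filter and 2 at an adjusted p under 0.1 (Cpt1a and Pdk4), all lower, where all genes called lower were 7.58%, 8.72%, 7.92%, 12.5%, 12%, 5.16% and 9.85%. Between shRNA2# and shRNA1#, DESeq2 called 1. Leaving out 1 library gave 0 to 5 called genes with shRNA2#, 5 only without lnc-Helf-sh2# + CCl4 replicate 1, and 0 in the other comparisons.

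The median over the 36 genes was negative with shRNA1# under every alternative, -0.43 when scaled to hepatocyte markers and -0.33 to -0.20 without 1 library. With shRNA2# it was -0.37 when scaled to hepatocyte markers, -0.34 in the 3 limma fits and -0.30 to 0.033 without 1 library, the positive value being without lnc-Helf-sh2# + CCl4 replicate 2. Between shRNA2# and shRNA1# it was 0.03 to 0.27 without 1 library. These scalings also moved the median of all genes with shRNA2#, to -0.15 with library totals only, -0.30 when scaled to hepatocyte markers and -0.18 and -0.21 in limma on log2(TPM + 1) and log2(TPM + 0.1).

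Among the 12 genes chosen by the rule, directions reversed only between shRNA2# and shRNA1#, in differences that no fit called. Other genes also changed sign against NC over the alternatives run, among them Vnn1 (-1.06 to 0.89), Acot2 (-0.83 to 0.29) and Acadl (-0.20 to 0.21) with shRNA2# and Acaa2 (-0.059 to 0.25) with shRNA1#. Between shRNA2# and shRNA1#, Ehhadh was -0.11 when scaled to hepatocyte markers and -0.024 in the 3 limma fits. Without 1 library, the log2 fold change between shRNA2# and shRNA1# ran over -0.23 to 0.29 for Ehhadh and -0.15 to 0.83 for Acot3. In the same comparison it ran over -0.18 to 0.021 for Acaa1b, -0.40 to 0.12 for Cpt1a and -0.20 to 0.081 for Decr2. Against NC, Ehhadh stayed at -0.80 to -0.59 with shRNA1# and at -0.89 to -0.38 with shRNA2# over the alternatives run.

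Same-numbered libraries did not vary together (correlations of -0.43 to 0.26), so the replicate numbers were not used for pairing. With the replicate number as a block, edgeR called 0 of the 36 genes in each comparison and 0 of 13059 genes with shRNA2#, and the medians were -0.27 with shRNA1#, -0.09 with shRNA2# and 0.16 between shRNA2# and shRNA1#. The cause of these differences was not tested. Of 915 values recomputed under an alternative, 857 were counted as unchanged. For single genes, 747 values kept their direction and side of the threshold, 30 were called only under the alternative and 12 reversed. No gene of the 36 was called in the main fit, so the loss of a call could not occur. Those 747 values were uncalled in both fits. For counts of called genes and medians over the 36 genes, 110 values stayed near the main value and 16 moved. A median was counted as near within 0.167 (log2), so it could still change sign. With 3 livers a group, a change as small as those of the mitochondrial spiral may not be detectable, and Fgf21 rests on as few as 13 expected counts in a library.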
